A study of Rattus norvegicus with 6 samples.

Results

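The interstitial collagen genes Col1a1, Col1a2, Col3a1, Col5a1, Col5a2, Col6a1, Col6a2, Col6a3, Col12a1 and Col14a1 were followed in an RNA sequencing table of rat cells and tissue. They were taken by gene symbol, ignoring case, and all 10 names matched 1 entry each among 27217 genes. The study set 3 libraries of RCS cells, a line grown from a rat chondrosarcoma (a cartilage tumour), beside 3 libraries of neonatal rat rib tissue. No treatment, gene change, rat strain or sex is named in the labels of either group. The design text calls the replicates biological without naming cultures or animals, so p-values measure the spread between these libraries only. A rib piece holds cartilage with its perichondrium, and can hold bone, muscle, vessels and connective tissue, whereas RCS cells are 1 line, so a level in rib tissue sums over cells of several types. In such bulk libraries, fewer cells of a type and less RNA per cell cannot be told apart.

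Collagens are triple helices of 3 alpha chains, each chain from its own gene or from a gene used more than once. Type I forms the thick fibrils of bone, tendon, skin and connective tissue, and type III is a fibril collagen of soft connective tissue. Type V is a minor fibril collagen that starts such fibrils and limits their width. Type VI builds beaded microfilaments, in cartilage mostly in the pericellular matrix around chondrocytes, from the products of Col6a1, Col6a2 and Col6a3. Types XII and XIV sit on the surface of fibrils as fibril-associated collagens and are prominent in tendon, ligament and perichondrium. Cartilage fibrils have another make-up, with types II, IX and XI, and chains of types V and XI are able to join in mixed molecules.

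Levels are normalized counts (a library's reads on a gene divided by 1 factor for that library). They were not divided by gene length, so 2 genes are set against each other only as a ratio that is then compared between the groups. Differences are RCS cells minus rib tissue on the scale log2(normalized count + 1), with their SE, and a gene was called lower or higher at a limma adjusted p under 0.05 (Benjamini-Hochberg over 16809 genes). Depth was estimated at 6000000 to 8520000 reads on genes in the RCS libraries and 5320000 to 7490000 in the rib libraries. The 13 chondrocyte markers had a mean log2 level of 10.54 to 10.65 in RCS libraries and 10.86 to 11.40 in rib libraries, and 4 were higher and 3 lower in RCS cells. The other 6 were neither, and the median difference over the 13 was 0.00. Over all tested genes, 43.6% were lower and 32.9% higher (median -0.15). Among the 3 lower chondrocyte markers, the largest gaps were at Ucma, with a difference of -6.37 (SE 0.37), and Chad, with -3.83 (SE 0.14). Both were named after their values were seen, and the 4 higher ones are not named here. The 14 skeletal muscle markers measured averaged 2.05 to 2.43 in RCS libraries and 11.30, 11.04 and 10.29 in rib tissue replicates 1, 2 and 3. All 14 of them were lowest, among rib libraries, in rib tissue replicate 3.

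All 10 interstitial collagen genes were lower in RCS cells than in rib tissue, by between 0.91 and 10.47 on the log2 scale. Among all tested genes, 43.6% were called lower in RCS cells and 32.9% higher. The 2 groups did not overlap at any of the 10 genes, against 44.5% of all tested genes for which every RCS library lay below every rib library. The median difference was -6.91 over the 10 genes and -0.15 over all tested genes. All 10 were above a normalized count of 1 in each of the 6 libraries, so none passed the filter on low values through rib tissue alone. The genes fell into a wide range rather than a common shift. Col14a1, Col3a1, Col1a1 and Col1a2 were lower by more than 8 log2 units, a step reached by 1.91% of tested genes, while Col5a2 and Col6a2 were lower by 2.03 and 0.91. The chains within type V and within type VI moved by very different amounts.

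**Figure D1:**
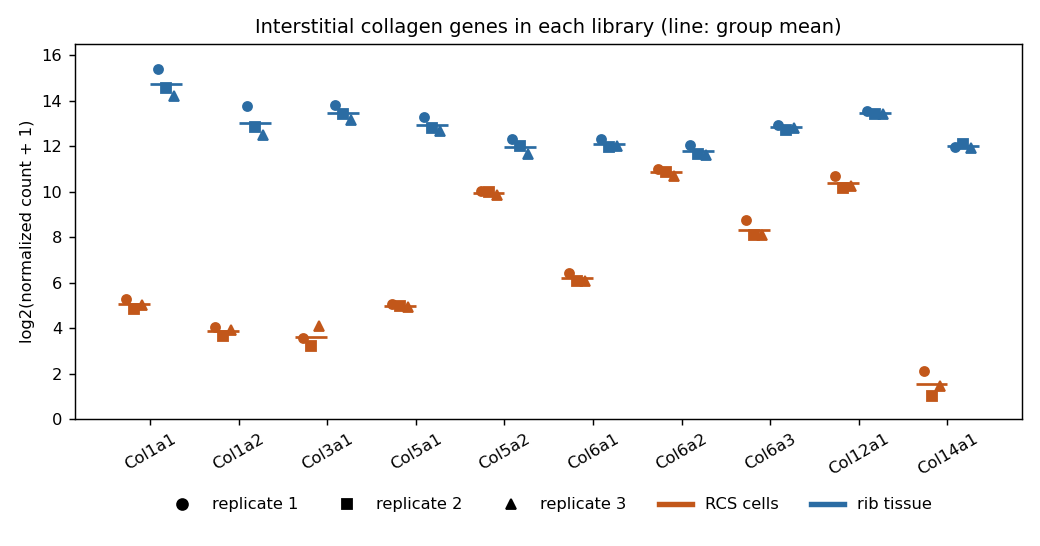
Level of each interstitial collagen gene, as log2(normalized count + 1), in the 3 RCS libraries (orange) and the 3 rib libraries (blue), with a line at each group mean. Every rib library lay above every RCS library at all 10 genes, and the gap was widest at Col14a1 (10.47) and narrowest at Col6a2 (0.91).

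Type I collagen, the main protein of bone and tendon, is built from 2 chains of Col1a1 and 1 of Col1a2. Col1a1 (ENSRNOG00000003897) stood at 38.1, 27.8 and 31.5 normalized counts in RCS cells replicates 1 to 3 and at 43561, 24463 and 19017 in rib tissue replicates 1 to 3. These RCS values rest on about 70.0, 53.5 and 44.5 reads. In each rib library its normalized count, not divided by gene length, was among the 8 highest of the tested genes. The difference was -9.68 (SE 0.27), an 822-fold higher level in rib tissue (limma adjusted p 3.84e-08, Benjamini-Hochberg). Col1a2 (ENSRNOG00000011292) stood at 15.4, 11.7 and 14.1 normalized counts in RCS cells and at 14028, 7464 and 5718 in rib tissue. Its gap was -9.17 (SE 0.29), or 577-fold (limma adjusted p 6.47e-08, Benjamini-Hochberg). Both chains were thus detected in every RCS library, at levels far below those of rib tissue, and both spread more among rib libraries (2.29-fold and 2.45-fold from lowest to highest) than the other 8 genes.

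The ratio of Col1a1 to Col1a2 within a library was close between groups but did not overlap. As log2, it was 1.25, 1.18 and 1.11 in RCS libraries 1 to 3 and 1.63, 1.71 and 1.73 in rib libraries 1 to 3, a gap of 0.51 (1.42-fold). With 3 libraries against 3, the exact permutation test (two-sided) cannot go below p = 0.1, the value found here, and adjusted over the 8 ratios tested it was 0.133.

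Type III collagen, a homotrimer of Col3a1 chains, is typical of soft connective tissue, vessel walls and healing wounds. Col3a1 (ENSRNOG00000003357) stood at 10.9, 8.30 and 15.9 normalized counts in RCS cells, which is about 20.0, 16.0 and 22.5 reads. In rib tissue it stood at 14364, 10865 and 9002. The difference was -9.83 (SE 0.24), or 909-fold (limma adjusted p 1.98e-08, Benjamini-Hochberg). The log2 ratio of Col3a1 to Col1a1 was -1.43 ± 0.42 (SD, n = 3) in RCS cells and -1.28 ± 0.28 in rib tissue, with overlapping groups (exact permutation p 0.8, adjusted 0.8).

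In type V collagen the gene of the major chain and that of its partner parted. Col5a1 (ENSRNOG00000008749), which gives the alpha 1 chain, stood at 31.8, 30.2 and 29.4 normalized counts in RCS cells and at 10011, 7066 and 6549 in rib tissue. It was 246-fold higher in rib tissue (-7.94, SE 0.15, limma adjusted p 1.06e-08, Benjamini-Hochberg). Col5a2 (ENSRNOG00000003736), which gives the alpha 2 chain, stood at 1038, 1016 and 935.3 in RCS cells and at 5084, 4083 and 3229 in rib tissue. Its difference was -2.03 (SE 0.15, limma adjusted p 6.53e-06, Benjamini-Hochberg), or 4.08-fold, so it stayed well expressed in the tumour line, on 1320 to 1958 reads a library. Col5a3 (8.32 ± 0.08 in RCS cells, 10.73 ± 0.30 in rib tissue), the third chain gene of type V, differed by -2.42 (SE 0.14).

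The log2 ratio of Col5a1 to Col5a2 was -4.98, -5.03 and -4.95 in RCS libraries 1 to 3 and 0.98, 0.79 and 1.02 in rib libraries 1 to 3. It shifted by 5.91 between the groups (60.3-fold), against an SD of 0.04 among RCS libraries and 0.12 among rib libraries, and the exact permutation p was again the smallest possible, 0.1. Col5a1 was also less lowered than Col1a1. Its log2 ratio to Col1a1 was -0.25, 0.12 and -0.10 in RCS cells and -2.12, -1.79 and -1.54 in rib tissue, a gap of 1.74 without overlap (exact permutation p 0.1, adjusted 0.133).

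Col5a2 lies beside Col3a1 in the RefSeq gene order, with 0 genes starting between them, yet the neighbours differed in the tumour line. The log2 ratio of Col5a2 to Col3a1, chosen after its values were seen and not tested, was 6.45, 6.77 and 5.79 in RCS cells and -1.50, -1.41 and -1.48 in rib tissue. The RCS ratios lay at least 7 log2 units above the rib ratios.

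The start regions of Col5a1, Col5a2 and Col1a2 are shown because they set a chain that stayed expressed in RCS cells (Col5a2) beside chains that were low there (Col5a1, Col1a2). Each run is the 250 bases before the RefSeq start of the gene in build GRCr8, 5′ to 3′ on the gene's strand, and RefSeq start regions were matched for 5 of the 10 genes (also Col6a1 and Col6a3). Capitals mark matches, on both strands, to 5 short motifs. These were the CCAAT box, written CCAAT, the GC box, written GGGCGG, the TATA box, written TATAAA, a site of the kind that SOX factors bind, written AACAAT, and the E-box, written CANNTG. No 2 matches in the runs shown overlap.
Col5a1, chr3:31606630-31606879, plus strand: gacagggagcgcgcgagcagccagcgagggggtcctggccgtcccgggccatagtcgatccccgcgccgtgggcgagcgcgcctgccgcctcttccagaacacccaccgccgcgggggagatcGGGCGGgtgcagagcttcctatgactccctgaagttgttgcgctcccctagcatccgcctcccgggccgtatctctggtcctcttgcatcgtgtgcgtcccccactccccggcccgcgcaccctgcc
Col5a2, chr9:55090152-55090401, minus strand: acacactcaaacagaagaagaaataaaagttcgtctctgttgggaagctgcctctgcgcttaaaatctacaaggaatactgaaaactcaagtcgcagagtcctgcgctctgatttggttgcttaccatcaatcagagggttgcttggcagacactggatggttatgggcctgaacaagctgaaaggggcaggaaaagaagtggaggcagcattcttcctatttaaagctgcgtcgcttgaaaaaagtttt
Col1a2, chr4:33518307-33518556, plus strand: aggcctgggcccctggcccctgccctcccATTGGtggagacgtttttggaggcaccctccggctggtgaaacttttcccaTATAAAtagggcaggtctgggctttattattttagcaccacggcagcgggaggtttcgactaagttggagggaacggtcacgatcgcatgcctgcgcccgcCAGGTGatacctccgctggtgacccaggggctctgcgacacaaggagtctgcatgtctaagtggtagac

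Col1a2 held a CCAAT box on the opposite strand at position -221 (counted from the start of the gene, to the first base of the match), a TATA box at -170 and an E-box at -69. Col5a1 held 1 GC box, at -127, and Col5a2, Col6a1 and Col6a3 held no match to the 5 motifs. Among 33469 RefSeq regions of this length, 34.0% held a CCAAT box, 30.5% a GC box, 12.9% a TATA box, 10.3% the SOX-type motif and 65.5% an E-box, so a match to most of them is common. The Col5a1 region was 71.6% G and C and the Col5a2 region 44.8%, against a median of 51.2% over all regions. These are matches of letters in a short window, not measured binding sites.

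**Figure D2:**
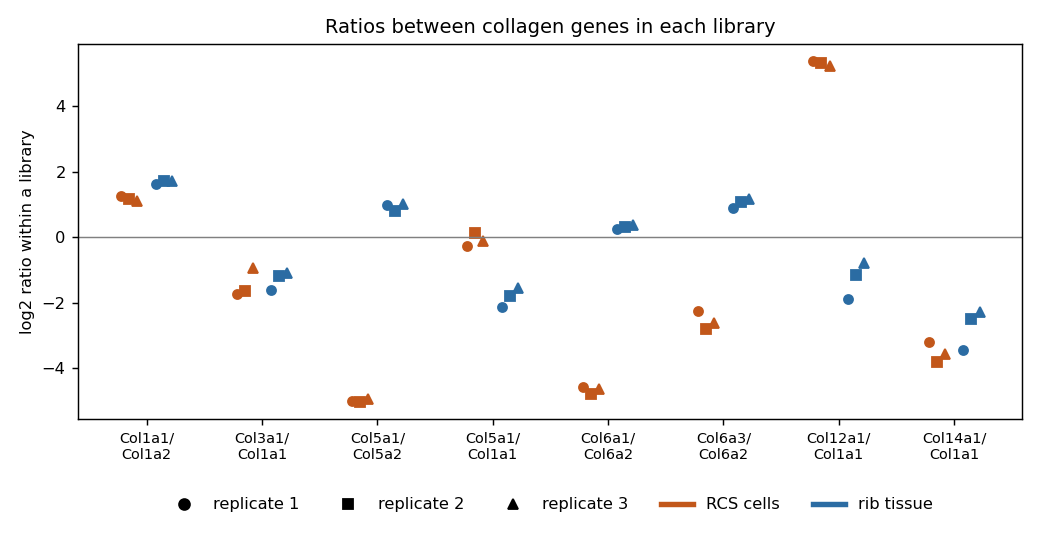
Log2 ratio between pairs of interstitial collagen genes within each library, for RCS cells (orange) and rib tissue (blue), with 1 marker shape per replicate. Col5a1/Col5a2, Col6a1/Col6a2, Col6a3/Col6a2 and Col12a1/Col1a1 separated the groups by 3.61 to 6.58, whereas Col3a1/Col1a1 overlapped, and Col14a1/Col1a1 overlapped with the pseudocount of 1 used here but not without it.

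Type VI collagen needs all 3 of its classical chains, and these were lowered unequally. Col6a1 (ENSRNOG00000001249) stood at 85.2, 66.6 and 66.9 normalized counts in RCS cells and at 5051, 3960.3 and 4085 in rib tissue. It was 59.1-fold higher in rib tissue (a gap of -5.89, SE 0.13, limma adjusted p 1.61e-08, Benjamini-Hochberg). Col6a2 (ENSRNOG00000001254) stood at 2069, 1859 and 1668 in RCS cells and at 4222, 3214 and 3158 in rib tissue. The highest RCS library thus lay below the lowest rib library, by the smallest margin of the 10 genes, and the difference was -0.91 (SE 0.14), or 1.88-fold (limma adjusted p 0.000362, Benjamini-Hochberg). Under quantile normalization it shrank to -0.24 (limma adjusted p 0.0481, Benjamini-Hochberg), so its size depends on the scaling. Col6a3 (ENSRNOG00000019648), the largest of these chains, stood at 431.2, 268.9 and 271.8 in RCS cells and at 7862, 6811 and 7182 in rib tissue. This made it 23.0-fold higher in rib tissue (-4.52, SE 0.18, limma adjusted p 1.83e-07, Benjamini-Hochberg).

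Col6a2 therefore stood apart from both partners in RCS cells. The log2 ratio of Col6a1 to Col6a2 was -4.59, -4.78 and -4.62 in RCS cells and 0.26, 0.30 and 0.37 in rib tissue, a shift of 4.97 (31.4-fold). That of Col6a3 to Col6a2 was -2.26, -2.78 and -2.61 in RCS cells and 0.90, 1.08 and 1.18 in rib tissue, a shift of 3.61 (12.2-fold). Neither ratio overlapped between groups, and each gave the smallest exact permutation p of 0.1 (0.133 adjusted over the 8 ratios). Being ratios within a library, these shifts do not depend, apart from the pseudocount, on the 1 factor that divides each library. The ratios were not computed under quantile normalization or cyclic loess. Col6a1 and Col6a2 are close neighbours, with 0 protein-coding genes starting between them in RefSeq. The later-found chain genes Col6a4 and Col6a5 were listed at 0 in every RCS library, at 3.05 ± 0.61 and 5.16 ± 0.86 (log2, SD, n = 3) in rib tissue, and Col6a6 stood at 1.62 ± 0.54 against 9.78 ± 0.65.

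The fibril-associated pair split even more widely. Col12a1 (ENSRNOG00000010510) stood at 1629, 1153 and 1212 normalized counts in RCS cells and at 11863, 11085 and 10936 in rib tissue. It was 8.57-fold higher in rib tissue (difference -3.10, SE 0.14, limma adjusted p 3.70e-07, Benjamini-Hochberg). Its normalized count, not divided by gene length, was among the 544 highest of the tested genes in each RCS library. Col14a1 (ENSRNOG00000026415) stood at 3.27, 1.04 and 1.77 normalized counts in RCS cells, or about 6, 2 and 2.5 reads, and at 4036, 4368 and 3901 in rib tissue. Its difference of -10.47 (SE 0.25, limma adjusted p 1.91e-08, Benjamini-Hochberg) was the largest of the 10 and ranked 44 among the genes most lowered in RCS cells. No fold is given for Col14a1, because its mean in RCS cells was 2.02 normalized counts and the added pseudocount of 1 understates the difference.

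Set against type I collagen, the XII and XIV genes took different courses. The log2 ratio of Col12a1 to Col1a1 was 5.38, 5.33 and 5.22 in RCS cells and -1.88, -1.14 and -0.80 in rib tissue, the largest shift of the 8 ratios (6.58, or 95.8-fold, exact permutation p 0.1, adjusted 0.133). Whether the ratio of Col14a1 to Col1a1 overlapped between groups depended on the pseudocount, since Col14a1 rests on 2 to 6 reads in RCS cells. With the pseudocount of 1 the ranges overlapped, at -3.52 ± 0.31 (SD, n = 3) for RCS cells against -2.73 ± 0.61 for rib tissue, a gap of -0.79 (exact permutation p 0.2, adjusted 0.229). With no pseudocount the log2 ratios were -3.54, -4.74 and -4.15 in RCS cells against -3.43, -2.49 and -2.29 in rib tissue. That gap of -1.41 left no overlap and gave the smallest exact permutation p of 0.1.

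Among the rib libraries, 9 of the 10 genes were highest in rib tissue replicate 1 (Col14a1 was highest in replicate 2) and 8 were lowest in replicate 3. The spread among rib libraries was widest for the type I chains and smallest for Col12a1 (1.08-fold from lowest to highest), Col14a1 (1.12-fold) and Col6a3 (1.15-fold). Together the 10 genes took 2.11%, 1.53% and 1.30% of rib libraries 1 to 3 and 0.0999% to 0.118% of the RCS libraries. Osteoblast markers varied in the same direction, with 10 of 12 highest in rib tissue replicate 1 and 10 of 12 lowest in replicate 3, and a mean log2 level over 11 tested genes of 8.64, 8.31 and 6.90. Their summed level was 6286, 5131 and 2939 normalized counts in rib libraries 1 to 3 and 2747 to 3178 in RCS libraries. Of the 12, Dmp1 and Sost were listed at 0 in every RCS library. Other lists were low in rib tissue replicate 3 as well, where 14 of 14 skeletal muscle, 8 of 8 adipocyte, 8 of 9 myeloid, 7 of 8 endothelial and 12 of 17 fibroblast and perichondrium markers had their lowest rib level. Skeletal muscle markers were also highest in replicate 1 (12 of 14), but endothelial markers were so in replicate 2 (7 of 8). All 13 chondrocyte markers were highest in replicate 3, and the 6 cartilage fibril collagens were all lowest in replicate 2. The part of tissue make-up in the spread of the interstitial collagens was not tested. Without rib tissue replicate 1, the library with most type I collagen, the differences were -9.34 for Col1a1 and -8.80 for Col1a2.

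Fibroblast and perichondrium markers, whose cells are a main source of interstitial collagens, were also lower in RCS cells. Of 17 tested genes, 15 were lower, 0 higher and 2 neither, against 43.6% lower and 32.9% higher over all tested genes. The median difference was -4.81, and 7 of the 18 were listed at 0 in every RCS library. These were Prrx1, Twist2, Dpt, Fap, Tcf21, Dpp4 and Mfap5, with Tcf21 at 0 in rib tissue as well. Their summed level was 3204 to 3705 normalized counts in RCS libraries and 23471 to 23864 in rib libraries. All 7 tendon and ligament markers were lower (median -5.56), with the tendon gene Tnmd and the keratocan gene Kera listed at 0 in every RCS library, and the list summed to 1295 to 1416 against 7672 to 8540 normalized counts. All 7 smooth muscle and pericyte markers were lower too (median -4.16, summed level 1475 to 1878 against 8271 to 8957), of which Cnn1 and Rgs5, named after their values were seen, were listed at 0 in every RCS library. Tested genes listed at 0 in every RCS library passed the filter only through rib tissue and could not be called higher. They were 6 of the 17 fibroblast and perichondrium genes, 2 of the 7 tendon genes and 2 of the 7 smooth muscle genes. Among all 16809 tested genes, 1947 were so listed. The share of fibroblast, tendon and smooth muscle cells in the differences of the collagens was not tested.

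Cartilage fibril collagens, the fibril genes of chondrocytes, were far less different between the groups. Of 6 genes, 3 were lower in RCS cells (Col2a1, Col11a1 and Col11a2), 0 higher and 3 neither. The median difference was -0.79, against -0.15 over all tested genes, of which 43.6% were lower and 32.9% higher. Col2a1, the type II chain, had a log2 level of 13.76 ± 0.33 (SD, n = 3) in RCS cells and 16.37 ± 0.54 in rib tissue (-2.62, SE 0.32). Col11a2, a type XI chain, stood at 12.12 ± 0.26 and 13.55 ± 0.42 (-1.43, SE 0.22), a call lost under quantile normalization (-0.18). Col9a1, a type IX chain, stood at 13.97 ± 0.18 and 14.16 ± 0.39, a difference of -0.19 (SE 0.22) that did not pass the test and turned positive under quantile normalization (1.57), cyclic loess (0.68), array weights (0.0053) and without rib tissue replicate 3 (0.0225). Under quantile normalization 4 of the 6 were higher and 1 lower. The 95% intervals of Col5a2 (-2.39 to -1.67) and Col6a2 (-1.23 to -0.60) lay in the range of the cartilage collagens. That of Col12a1 (-3.42 to -2.78) overlapped the interval of Col2a1, whereas those of the other 7 interstitial genes lay wholly below it.

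**Figure D3:**
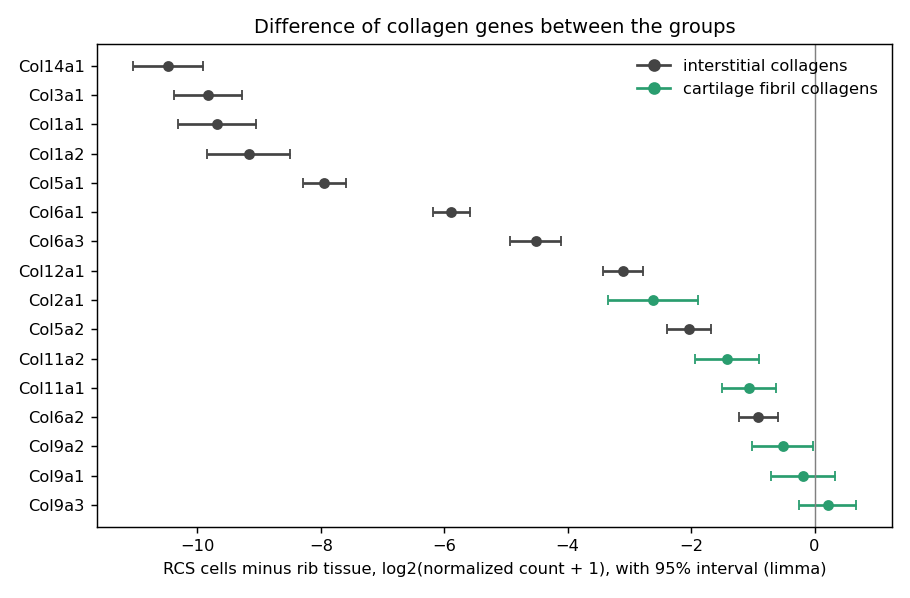
Difference between RCS cells and rib tissue, in log2(normalized count + 1) with its 95% interval from limma, for the 10 interstitial collagen genes (dark) and the 6 cartilage fibril collagen genes (green). Col14a1, Col3a1, Col1a1 and Col1a2 sit beyond -9, and Col12a1, Col5a2 and Col6a2 sit beside or among the cartilage genes.

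Over the rest of the collagen family, 23 of 28 further genes were lower in RCS cells, 0 higher and 5 neither, with a median difference of -4.82. The shares over all tested genes were 43.6% lower and 32.9% higher (median -0.15). Col8a1, a short-chain collagen of vessel walls and other tissues, was at 0 throughout the RCS libraries, against 10.65 ± 0.17 in rib tissue. Col18a1, a basement membrane collagen, stood at 0.50 ± 0.86 and 10.55 ± 0.17. The 2 with the highest mean were Col27a1, a fibrillar collagen of cartilage, at 12.20 ± 0.18 and 12.49 ± 0.37 (-0.30, SE 0.19), and Col16a1, a fibril-associated collagen, at 10.37 ± 0.09 and 12.31 ± 0.29 (-1.94, SE 0.15). The Col27a1 difference did not pass the test, was called lower without rib tissue replicate 2 (-0.50), and turned positive under quantile normalization (0.79, called) and cyclic loess (0.20). Of these 28 genes, 7 were listed at 0 in every RCS library and could not come out higher.

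**Figure D4:**
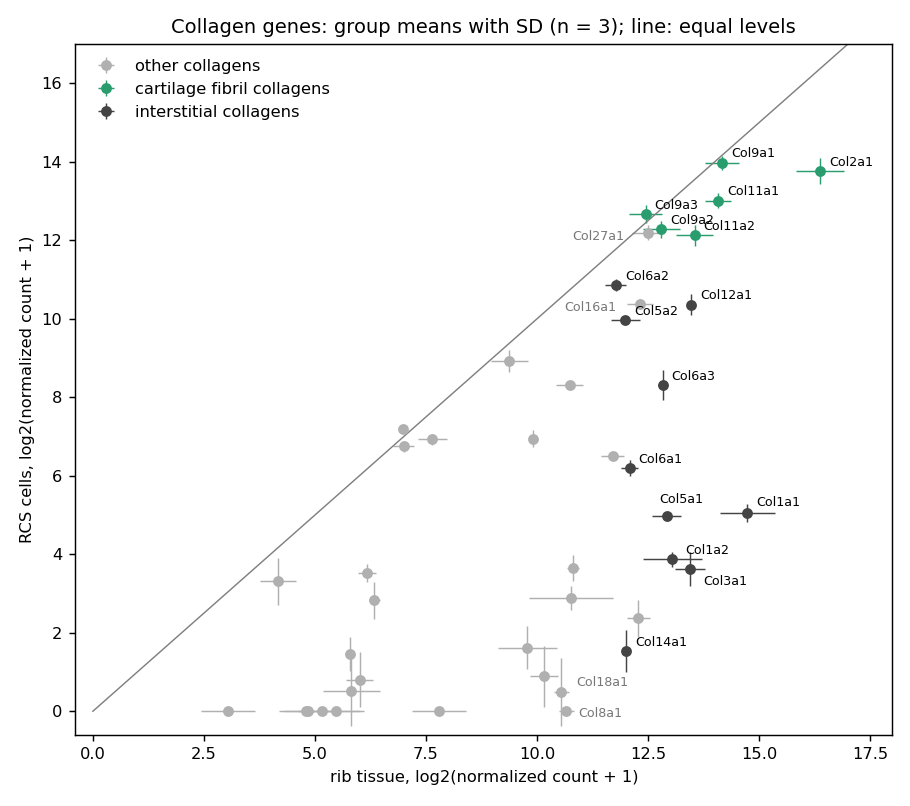
Mean level in RCS cells against mean level in rib tissue, both as log2(normalized count + 1) with SD over 3 libraries, for 44 collagen genes, with a line at equal levels. Cartilage fibril collagens lie at high levels, from just above the line (Col9a3) to 2.62 below it (Col2a1). The interstitial collagens spread downward from Col6a2 at 10.86 to Col14a1 at 1.53 in RCS cells, with Col6a2 (0.91 below the line) and Col5a2 (2.03) nearer the line than Col2a1.

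Matrix proteins that bind or organise collagen fibrils followed the interstitial collagens in direction. Of 20 genes, 18 were lower in RCS cells, 1 higher and 1 neither, with a median difference of -6.01. Over all tested genes, 43.6% were lower and 32.9% higher (median -0.15). The 4 genes Dcn, Dpt, Tnxb and Mfap5 were listed at 0 in every RCS library. These 4 were tested only because rib libraries held them and could not be called higher. Thbs2, a matricellular protein gene, averaged 0.88 ± 0.76 for RCS cells against 11.81 ± 0.04 for rib tissue, and Tnc, the tenascin C gene, at 1.51 ± 0.21 and 11.99 ± 0.23. Sparc, a collagen-binding glycoprotein gene, was 4.39-fold higher in rib tissue (-2.14, SE 0.15), and Fn1, the fibronectin gene, 4.2-fold (-2.07, SE 0.12). Thbs1 was the 1 gene higher in RCS cells, at 12.27 ± 0.20 against 11.43 ± 0.17 (0.84, SE 0.13). Dcn, the decorin gene, was named after its values were seen. It stood at 10.20 ± 0.07 in rib tissue. This list and the fibroblast list share Dpt, Lum, Postn, Fn1, Fbln1 and Mfap5.

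Genes that fold, modify, cut and crosslink collagen were mixed. Beside 43.6% of all tested genes lower and 32.9% higher (median -0.15), this list had 17 of 30 genes lower in RCS cells, 6 higher and 7 neither. The median difference over the 30 was -0.63. Under quantile normalization 17 were lower and 12 higher. P4hb, which forms part of the collagen prolyl hydroxylase enzyme, exceeded its rib level 1.45-fold (11.76 ± 0.17 against 11.23 ± 0.11). Colgalt1, a collagen galactosyltransferase gene, did so 2.02-fold (10.98 ± 0.14 against 9.97 ± 0.11). Named after their values were seen, P4ha1, P4ha2 and P4ha3 were lower in RCS cells (-0.83, -0.40 and -0.92) and Loxl3 was higher (0.53). Serpinh1, the collagen chaperone gene, stood at 11.54 ± 0.28 and 11.40 ± 0.17, a difference of 0.14 (SE 0.15) that did not pass the test, and was called higher under quantile normalization (0.91) and cyclic loess (0.46). Adamts3, which removes the amino-terminal propeptide of procollagens, was at 0 throughout the RCS libraries, against 10.65 ± 0.34 in rib tissue. Its relatives Adamts2 and Adamts14, named after their values were seen, were also listed at 0 in every RCS library, at 10.17 ± 0.24 and 7.67 ± 0.45 in rib tissue. Lox, the lysyl oxidase that starts collagen crosslinks, stood at 0.35 ± 0.61 against 11.11 ± 0.23. Pcolce2, an enhancer of procollagen C-proteinase, was 1.86-fold higher in RCS cells (10.02 ± 0.09 against 9.12 ± 0.07).

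Collagen receptors and uptake genes were mixed. Of 12 tested, 9 were lower in RCS cells, 1 higher and 2 neither, beside 43.6% lower and 32.9% higher of all tested genes. The median difference was -1.20, against -0.15 for all tested genes. Cd36, a scavenger receptor that also marks fat and vessel cells, was at 0 throughout the RCS libraries, against 8.80 ± 0.39 in rib tissue. Itga2, a chain of a collagen-binding integrin, stood at 1.28 ± 0.12 and 9.03 ± 0.45. Ddr1, a collagen-activated receptor kinase, was the 1 gene higher in RCS cells, 2.52-fold (9.79 ± 0.11 against 8.46 ± 0.43). Cspg4, a proteoglycan that binds type VI collagen, was 2.92-fold higher in rib tissue, and Itgb1, the shared beta chain, 1.42-fold (10.41 ± 0.09 against 10.92 ± 0.12), a call lost under quantile normalization (-0.10).

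A search was made for the genes whose profile over the 6 libraries, centred on its own mean, came nearest to the mean centred profile of the 10 collagens. It covered the tested genes other than the 10, without entries named only by an Ensembl identifier and symbols starting with LOC, RGD, Mir, rno-mir or Snor. By root mean square distance these were Atp9a (0.090), an unnamed gene model, Cdkn1c (0.149), Chst1 (0.151) and Ntpcr (0.153). Atp9a, a phospholipid flippase gene, had a log2 level of 2.67 ± 0.15 (SD, n = 3) in the RCS libraries against 9.09 ± 0.34 in rib tissue. The unnamed gene model, Chst1 and Ntpcr were listed at 0 in all 3 RCS libraries, so their RCS values carry no variation to compare. The mean profile is that of no single collagen, since the members lay at distances from 0.249 (Col6a1) to 2.72 (Col6a2), against a median of 3.12 over all tested genes.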

How the data were processed

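RNA of 3 RCS libraries and 3 neonatal rib libraries was sequenced. Titles gave each library's group and replicate number. The authors deposited log2 values in 1 table of 27217 genes. Its name carries a unit per gene length, but low values were log2 of multiples of 1 step shared by many genes in a library, so they were read as log2 of a normalized count. One read was worth 0.519 to 0.709 normalized counts in RCS libraries and 0.758 to 1.03 in rib libraries, and depth is the sum divided by this step. Normalized counts of 1 or less were listed as 0. The submitters' processing notes name CASAVA 1.8, DESeq and build rn5. Which aligner and counting rule were used, and whether strand was used, is not given in the sources used here. Whole reads came out (within 0.01) for 38.7% to 54.9% of values of at most 10 reads, so no count model was used.

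The 16809 genes that reached a normalized count of 1 in 3 or more libraries were fitted in limma 3.58.1 (R 4.3.3) on log2(normalized count + 1), two-sided, with moderated variances that follow mean intensity. The fit was tested on simulated data. No fold is given where either group averaged under 10 normalized counts. Ratios were tested by exact permutation in SciPy 1.17.1, and 4 further ratios had no test. Of 198 list names, 183 matched by symbol, 12 through Entrez identifiers in RefSeq (GRCr8, names and neighbours only) and 3 had no match (Col21a1, Ttn, Acta2). Where a name had several entries, that with the highest mean was used. Over all tested genes, 43.6% were lower in RCS cells and 32.9% higher (median -0.15). Marker genes were lower in 8 of 8 endothelial (median -6.91), 9 of 9 myeloid (-5.95), 7 of 8 adipocyte (-6.43) and 14 of 14 skeletal muscle cases (-9.51). Of these, 4, 5, 4 and 3 were listed at 0 in every RCS library, and such genes, tested only because rib libraries held them, had no way to be called higher. Of 13 chondrocyte markers 4 were higher and 3 lower (0.00), and of 11 osteoblast markers 1 was higher and 6 lower (-1.68, with 1 at 0 in every RCS library). Lists share some genes.

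Genes to name were the 10 collagens, for each of 5 lists the 2 largest called differences in each direction and the 2 highest means, and the 5 nearest profiles. Members and lists were chosen with earlier results of these data known. Levels per coding length were planned but are not given, since no lengths of these gene models were used here.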

Additional observations from a re-analysis of the deposited data

How the results depend on the processing

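The 10 interstitial collagen genes were called lower in RCS cells under all 16 alternatives (3 scalings, 2 pseudocounts, 2 filters, array weights, no intensity trend, the replicate number as a block and each library left out), with differences from -9.94 to -8.24 for Col1a1 and -0.99 to -0.24 for Col6a2. Quantile normalization moved the median gene by 0.47, cyclic loess by 0.18, the filter on a mean of 10 by 0.12, and leaving out rib tissue replicate 1, 2 or 3 by 0.20, 0.19 and 0.20. The share of called genes that were higher in RCS cells was 43.0% and became 61.9% (8000 higher, 4924 lower) with quantile normalization. There, 4 cartilage fibril collagens were higher and 1 lower, 3 other collagens, 2 fibril partners and 12 processing genes were higher, Col9a1 differed by 1.57 and Col27a1 by 0.79. Under cyclic loess, 2 cartilage fibril collagens and 2 fibril partners were higher, and Col9a1 (0.68) and Col27a1 (0.20) were positive. Col9a1 was also positive with array weights (0.0053). Leaving out each library in turn took Col9a1 from -0.36 to 0.0225 and the number of fibril partners higher from 1 to 2, the top values in both cases being those that lack rib tissue replicate 3. Causes were not tested. The 8 ratios kept their direction with no pseudocount and without each library. Levels per transcript length were not run.

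Same-numbered libraries are not shown to be pairs: their deviations correlated at 0.064, -0.076 and 0.047. With the replicate block 7340 genes were lower and 5536 higher, against 7324 and 5536 without it, and all 10 collagens stayed lower. Col14a1, Col3a1 and Col1a2 rest on fewer than 30 reads in each RCS library, which limits how well their low levels are known.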
